A study of Caenorhabditis elegans with 2 samples.

Results

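Small nucleolar RNA (snoRNA) and small nuclear RNA (snRNA) genes were examined as places of ELT-1 binding in Caenorhabditis elegans L3 larvae. The members were the 475 genes with the biotype snoRNA or snRNA among the 46926 genes of Ensembl release 115 on WBcel235, the build that the lists call ce11. Of these, 346 were snoRNA genes and 129 were snRNA genes. Each gene was extended by 200 bp on both sides, and a member was counted as bound in a list when a peak summit of that list fell in the extended gene. The rule reads only the annotated biotype and no measured value, although the set was chosen with earlier results of these data known.

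SnoRNAs guide chemical changes on other RNAs: box C/D snoRNAs direct 2′-O-methylation and box H/ACA snoRNAs direct pseudouridylation, mostly of ribosomal RNA. Many snoRNAs are cut out of the introns of host genes, and others are transcribed from genes of their own. The snRNAs U1, U2, U4, U5 and U6 form the core of the spliceosome, while in nematodes the spliced leader RNAs SL1 and SL2 donate a short leader to the 5′ ends of mRNAs by trans-splicing, SL2 mainly to downstream genes of operons. ELT-1 is a GATA factor known for specifying epidermal fate in the worm embryo.

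The data were ChIP-seq peak lists for eGFP-tagged ELT-1 from whole L3 larvae of strain OP354 (unc-119(tm4063) III; wgIs354), in which the tagged elt-1 is an inserted transgene. The labels gave 1 group, males and females pooled, with biological replicates 1 and 2 and no other condition, so no contrast between conditions was possible. Whole animals mix all tissues, and the lists do not tell in which cells ELT-1 was bound. The lists used were the relaxed list of each replicate, with 29029 peaks in replicate 1 and 30000 in replicate 2, the relaxed list of both replicates pooled, with 30000 peaks, and the 1910 peaks selected by irreproducible discovery rate (IDR, which keeps peaks whose ranks repeat between replicates). The IDR peaks were the 1910 strongest peaks of the pooled list. The signal is the authors' own value for each peak and was used only to describe or rank peaks within 1 list. Relaxed lists hold background regions as well as binding sites, and read depth is unknown.

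The sequences from 50 bases before to 50 after the IDR summits of 5 members are given first, because they include the strongest summits and because 4 of the 5 hold no GATA site. They are read from the RefSeq copy of WBcel235 (ce11), on the member's own strand, and capitals mark a GATA site, which is GATA with A or T before it and A or G after it, on either strand.
W06H8.17, chrV:6227629-6227729, minus strand: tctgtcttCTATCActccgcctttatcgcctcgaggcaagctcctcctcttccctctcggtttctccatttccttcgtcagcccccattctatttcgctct
sls-2.1, chrII:5844794-5844894, plus strand: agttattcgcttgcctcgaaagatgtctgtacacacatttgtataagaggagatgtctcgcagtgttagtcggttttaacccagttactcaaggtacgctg
F37A8.7, chrIII:3953263-3953363, plus strand: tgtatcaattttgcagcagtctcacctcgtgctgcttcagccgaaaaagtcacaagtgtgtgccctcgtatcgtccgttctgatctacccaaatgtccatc
sls-2.2, chrII:5543720-5543820, plus strand: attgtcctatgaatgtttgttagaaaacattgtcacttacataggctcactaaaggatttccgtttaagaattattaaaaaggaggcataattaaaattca
F38E11.10, chrIV:9444567-9444667, plus strand: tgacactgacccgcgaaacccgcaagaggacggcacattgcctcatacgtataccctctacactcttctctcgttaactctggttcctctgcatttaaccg
The only capitals, in W06H8.17, are the reverse complement of TGATAG. The next sequences are the other IDR summits of members with a GATA site, and were added after their values were seen.
F32E10.10, chrIV:7574111-7574211, plus strand: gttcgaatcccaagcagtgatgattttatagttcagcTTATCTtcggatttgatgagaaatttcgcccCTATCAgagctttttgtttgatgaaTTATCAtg
C08D8.3, chrV:8349038-8349138, plus strand: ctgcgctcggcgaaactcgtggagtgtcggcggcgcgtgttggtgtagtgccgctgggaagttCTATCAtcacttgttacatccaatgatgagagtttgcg
The F32E10.10 window holds 3 sites, all on the other strand. SL2 RNA genes carried several of the strongest summits, so the genes sls-2.1, sls-2.2 and sls-2.8 are shown whole, with the first 22 bases in capitals, which are the leader in sls-2.1 and sls-2.2.
sls-2.1, chrII:5844865-5844974, plus strand: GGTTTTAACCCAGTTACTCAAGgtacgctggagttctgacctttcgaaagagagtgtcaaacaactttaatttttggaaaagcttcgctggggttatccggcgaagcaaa
sls-2.2, chrII:5543598-5543707, plus strand: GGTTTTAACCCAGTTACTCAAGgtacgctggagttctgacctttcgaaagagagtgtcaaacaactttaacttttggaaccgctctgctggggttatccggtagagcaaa
sls-2.8, chrIII:12250465-12250575, plus strand: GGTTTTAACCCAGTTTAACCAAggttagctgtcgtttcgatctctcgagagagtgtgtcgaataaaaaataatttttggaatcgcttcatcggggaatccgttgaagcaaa
In a global alignment, sls-2.2 was identical to sls-2.1 in 92.7% of columns and sls-2.8 in 75%. The first 22 bases of sls-2.1 were shared exactly by 4 of the 18 SL2 genes, namely sls-2.1, sls-2.2, sls-2.3 and sls-2.4.

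In all, 30 of the members, 6.32% (exact 95% Clopper-Pearson interval 4.30 to 8.89), had an IDR summit, against 2.92% of all 46890 nuclear genes extended in the same way. The share was 6.94% for snoRNA genes (24 of 346, interval 4.49 to 10.1) and 4.65% for snRNA genes (6 of 129, interval 1.73 to 9.85). The lower limit for snoRNA genes lay above the value for all genes, while the interval for snRNA genes contained it. The members had a median length of 125 bases, against 196 for all genes, although many of these are piRNA genes with a median of 21 bases, of which 0.182% had an IDR summit. Among other genes, the share was 4.50% for protein-coding genes, 3.1% for tRNA genes, 4.75% for ncRNA genes, 6.19% for lincRNA genes (12 of 194, median length 761 bases), 5% for antisense RNA genes (5 of 100) and 0.383% for miRNA genes. The lincRNA share was thus close to that of the members. When every gene was reduced to 200 bp on each side of its annotated 5′ end, length no longer entered. By this rule, 29 members (6.11%) had an IDR summit, against 1.56% of all genes, piRNA genes included, and 1.78% of protein-coding genes. The share was 3.71% for ncRNA genes and 3.1% for tRNA genes, and lower for miRNA genes (0.383%) and pseudogenes (0.188%).

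In the pooled list, 175 members (36.8%) had a summit, against 31.7% of all genes. The pooled share was higher than that of the members for protein-coding (49.9%), tRNA (49.5%) and lincRNA genes (39.7%), and was 9.95% for the 15363 piRNA genes counted in all genes. Protein-coding genes are longer, with a median of 2027 bases. Within 200 bp of the 5′ end, the pooled share was 33.9% for members, 17.1% for protein-coding genes and 15.8% for all genes. For tRNA genes it was 47.2% by that rule. The extended members together covered 247.8 kb and held 30 distinct IDR summits, or 121 per Mb (exact Poisson 95% interval 81.7 to 173), against 18.8 per Mb over the nuclear genome. The ratio of these densities was 6.45 for IDR summits and 2.74 for pooled summits. With the strongest 955 IDR peaks alone, the ratio was 3.93 and 9 members kept a summit, a count that was not computed for all genes. C51F7.3 and C51F7.4 shared 1 summit, and sls-2.1 had 2, so 30 members and 30 summits do not pair one to one.

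The members held about as large a share of the peaks just below the IDR threshold as of the IDR peaks. By rank in the pooled list, extended members held 30 of the first 1882 nuclear peaks, which are those of the IDR list (1.59%). They held 40 of the next 1910 (2.09%), 46 of ranks 3821 to 7640 (1.2%), 36 of ranks 7641 to 15280 (0.471%) and 51 of the ranks from 15281 on (0.346%). The intervals of the first 2 bins, 1.08 to 2.27 and 1.5 to 2.84, overlap, and the shares were lower in the weaker bins. The median IDR signal was 37.0 for summits in extended members (range 27.7 to 76.9, order-statistic 95% interval of the median 32.2 to 38.8) and 40.7 for the other 1852 nuclear IDR summits (range 27.7 to 1858).

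**Figure D1:**
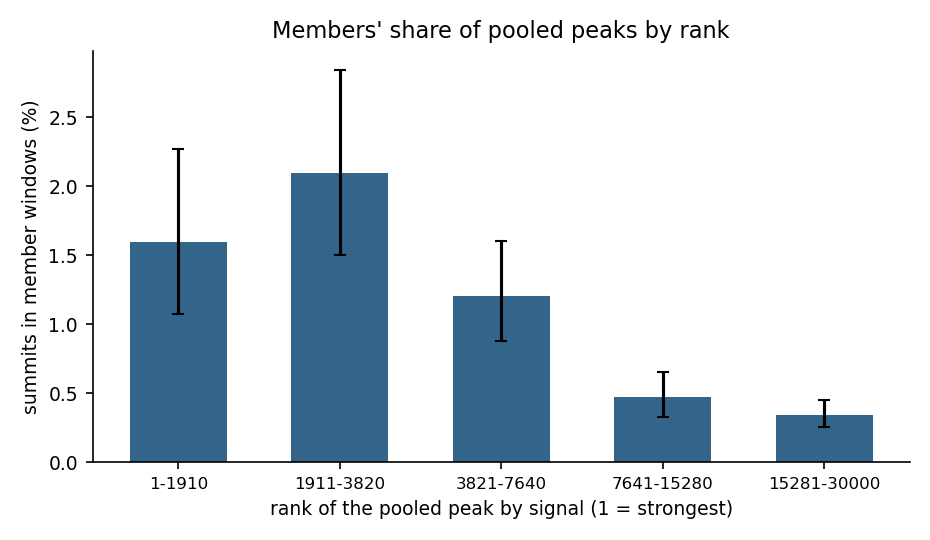
Share of nuclear pooled-list summits that lie in extended snoRNA or snRNA genes, in percent, by rank of the peak's signal in the pooled list; bars are shares and lines exact 95% intervals. The bins of ranks 1 to 1910 and 1911 to 3820 stand at 1.59% and 2.09%, and the weakest bin at 0.346%.

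Host-intron snoRNA genes carried fewer IDR summits than free-standing ones. A snoRNA gene was called host-intron when it lay in an intron of a protein-coding gene on the same strand, and free-standing when it overlapped no protein-coding gene. An IDR summit was present at 5 of 142 host-intron genes (3.52%, interval 1.15 to 8.03) and at 13 of 124 free-standing genes (10.5%, interval 5.70 to 17.3), against 2.92% of all genes. With these windows, which vary in length with the gene, the host-intron share was near that of all genes, which lay inside its interval. The interval of the free-standing genes lay above the value for all genes. The difference was −6.96 percentage points, with a 95% interval of −14.1 to −0.393 built from both intervals. These intervals treat genes as independent, although neighbouring genes share hosts and summits, so they are no test of the difference. From the strongest 1910 peaks of replicate 1 alone the shares were 1.41% and 12.9% (−11.5 points), against 2.85% of all genes. From those of replicate 2 alone they were 5.63% and 12.1% (−6.46 points), against 2.93%. The pooled list gave 28.9% of host-intron and 52.4% of free-standing genes, against 31.7% of all genes, and the intervals of both classes, 21.6 to 37.1 and 43.3 to 61.5, did not overlap. In the whole list of replicate 1 the shares were 31.0% and 43.5%, against 32.2% of all genes. In replicate 2 they were 33.1% and 46.8%, in the same order, against 32.3%. Without IDR summits that lie in promoter windows of protein-coding genes (1000 bp upstream to 200 bp downstream of a transcript start), the shares were 2.82% and 4.84%. The difference was −4.03 points with no extension, −5.25 with 100 bp and −2.94 with 500 bp, where the shares were 9.15% and 12.1%, so it was largest at the 200 bp used here. Shares over all genes were not computed without the promoter summits or at these other extensions, so 2.92% is no reference for those values. For host-intron and free-standing genes reduced to 200 bp around the 5′ end, the IDR shares were 3.52% and 10.5%, against 1.56% of all genes. The pooled shares by that rule were 25.4% (interval 18.4 to 33.3) and 49.2% (40.1 to 58.3), against 15.8% of all genes. Both of these pooled intervals lay above the value for all genes, while the host-intron IDR interval contained it.

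The 2 remaining kinds of place were less numerous. Among snoRNA genes that overlap an exon of a protein-coding gene, 5 of 53 had an IDR summit (9.43%, interval 3.13 to 20.7), and so did 1 of 27 in an intron of the opposite strand (3.70%, interval 0.0937 to 19.0). None of the 23 snoRNA genes in introns of ribosomal protein genes had one, which allows a share of up to 14.8% by the exact interval. Of these 23 genes, 3 (13.0%) had a pooled summit, against 38 of the 119 in introns of other genes (31.9%). The annotated 5′ end lay in such a promoter window for 38.7% of host-intron and 37.1% of free-standing snoRNA genes. Among those outside such windows, an IDR summit was found at 4 of 87 host-intron genes (4.60%) and 6 of 78 free-standing genes (7.69%). Inside them, the counts were 1 of 55 (1.82%) and 7 of 46 (15.2%).

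**Figure D2:**
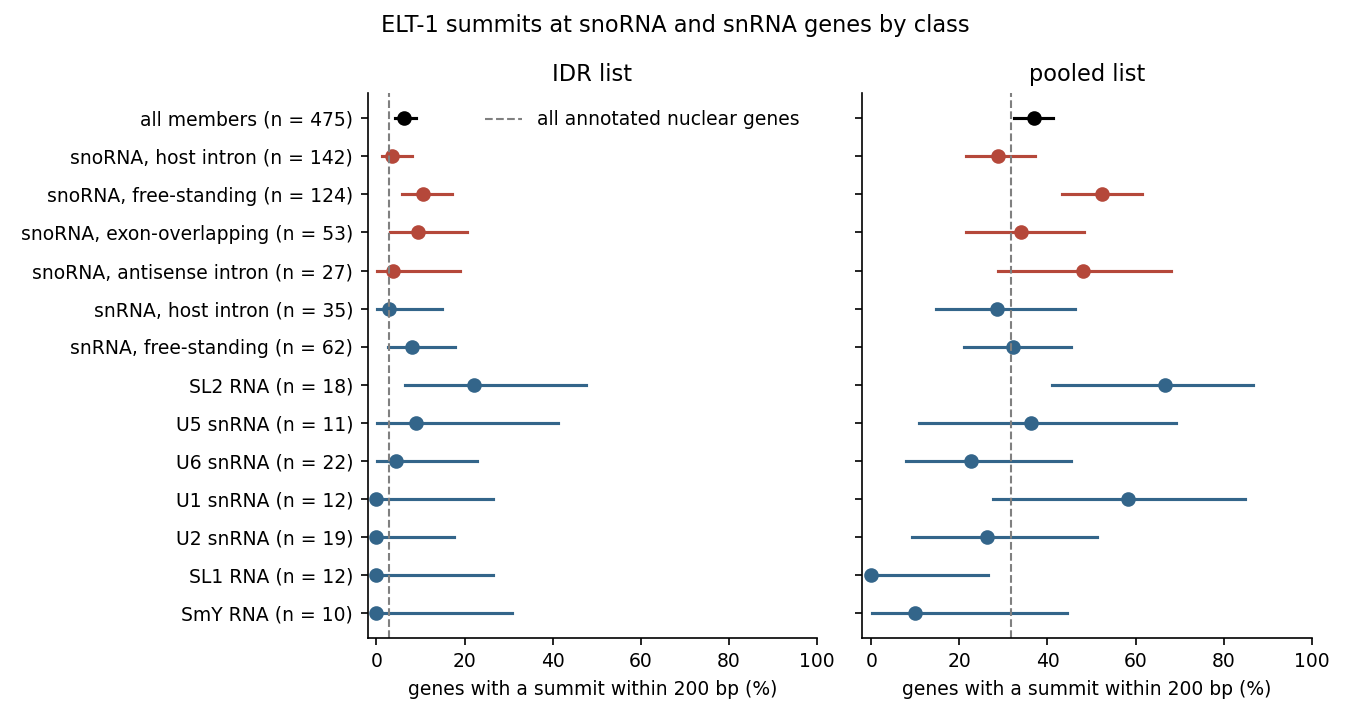
Percent of genes with a summit within 200 bp in the IDR list (left) and the pooled list (right), by class of snoRNA or snRNA gene; points are shares, lines exact 95% intervals, and the dashed line is the value for all nuclear genes. Host-intron snoRNA genes sit at 3.52% and free-standing ones at 10.5% in the IDR list, and SL2 RNA genes sit highest of the classes plotted, at 22.2%.

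The members at the 12 strongest IDR summits included 8 snoRNA genes, and 7 of them were free-standing. W06H8.17, on chromosome V, had an IDR and pooled signal of 76.9 (rank 257 of 1910), with 14.5 in the replicate 1 list (rank 1166) and 66.2 in the replicate 2 list (rank 139). Its summit lay 129 bp upstream of the 5′ end and also in the promoter window of W06H8.6. F37A8.7, on chromosome III, had a signal of 74.4 (rank 284), with 35.6 in replicate 1 (rank 197) and 41.8 in replicate 2 (rank 383). The replicates thus ranked F37A8.7 alike and W06H8.17 far apart. The F37A8.7 summit lay inside the gene, 63 bp from the 5′ end, and in no promoter window.

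T08B6.64 on chromosome IV (45.9), F09G2.14 on V (45.6), F17C11.24 on V (44.8), F42A8.4 on II (38.8) and Y74C9A.6 on I (38.3) were the next free-standing genes by IDR signal. Their replicate ranks ran from 770 to 2288 in replicate 1 and from 719 to 981 in replicate 2, and only the replicate 1 rank of Y74C9A.6 lay below the strongest 1910. T03F7.8, a snoRNA gene in an intron of the opposite strand, had an IDR signal of 37.8, with 18.1 in replicate 1 (rank 745) and 21.8 in replicate 2 (rank 1455). No summit of these 6 genes had a GATA site within 50 bp.

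The host-intron genes with an IDR summit were all near the lower end of the list. C08D8.3, in an intron of C08D8.1, had a signal of 31.3 (rank 1543), and C51F7.3, in frm-7, which encodes a FERM-domain protein, had 30.6 (rank 1608). The C51F7.3 summit, shared with C51F7.4, lay 109 bp upstream of C51F7.3 and in an exon of frm-7, not in the intron. Y38F2AR.14, in Y38F2AR.12, had 29.3 (rank 1728), C10C6.8, in catp-8, which encodes a cation-transporting ATPase, had 28.2 (rank 1856), and F55A11.10, in F55A11.6, had 27.7 (rank 1908). The lowest signal in the whole IDR list was also 27.7. None of these 5 was among the strongest 1910 peaks of both replicates: 1 was in replicate 1 and 4 were in replicate 2. F55A11.10 had no replicate 1 summit in its extended gene, and its IDR summit lay 28 bp downstream of a transcript start of its host, in that promoter window and in an exon of the host.

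Among all 30 members with an IDR summit, 28 had a replicate 1 summit and 30 a replicate 2 summit in the extended gene. The exceptions, C02F5.15 and F55A11.10, had none in replicate 1. Each of the 30 was among the strongest 1910 peaks of at least 1 replicate, 21 in replicate 1 and 25 in replicate 2. Strong summits in both replicates were found at 16 members, 3.37% of 475, against 1.7% of all genes. They were 11 snoRNA genes and 5 snRNA genes. Of them, 8 were free-standing snoRNA genes (6.45% of 124), and none was a host-intron snoRNA gene (0 of 142). The other snoRNA genes among the 16, not named above, were D2021.6 (IDR signal 37.3), Y53F4B.47 (36.7), T27A3.9 (33.5) and Y71G12B.41 (28.7).

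**Figure D3:**
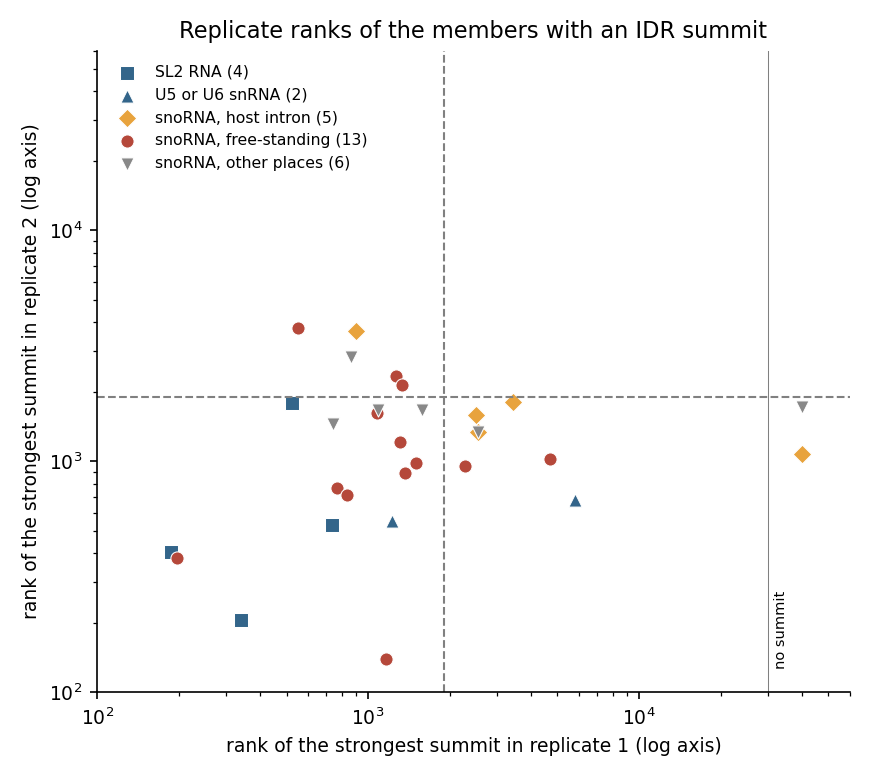
Rank of the strongest summit in replicate 1 (x) against replicate 2 (y) for the 30 members with an IDR summit, on log axes where 1 is the strongest peak; dashed lines mark rank 1910, and points right of the thin line have no replicate 1 summit. The 16 members at the lower left are among the strongest 1910 peaks of both replicates, and no host-intron snoRNA gene is among them.

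Among snRNA genes, the IDR summits were mostly at SL2 RNA genes. SL1, SL2 and SmY genes were told apart by gene name, and U1, U2, U4, U5 and U6 genes by a short word in the gene sequence. The U families are thus not labels of the annotation. Genes with no such word, or with several, were called other snRNA. An IDR summit was at 4 of the 18 SL2 genes (22.2%, interval 6.41 to 47.6), 1 of 11 U5 genes and 1 of 22 U6 genes. Among SL2 genes, it was at 3 of 5 (60%) with the 5′ end in a protein-coding promoter window and at 1 of 13 (7.69%) outside such windows. No IDR summit was found at the 12 U1, 19 U2, 5 U4, 12 SL1, 10 SmY or 20 other snRNA genes. In the pooled list, summits lay at 12 of 18 SL2 genes (66.7%) and 7 of 12 U1 genes (58.3%), against 5 of 19 U2 genes (26.3%), 4 of 11 U5 genes (36.4%), 5 of 22 U6 genes (22.7%) and 1 of 10 SmY genes. The strongest U1 gene in the pooled list, F08H9.11, had a signal of 22.6 at rank 2586, below the IDR threshold. SmY is a nematode RNA of the trans-splicing machinery. The genes smy-2 and smy-3 have the biotype snoRNA and are counted there.

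The 4 SL2 genes with an IDR summit were all free-standing and all among the strongest 1910 peaks of both replicates. The IDR summits at sls-2.1, sls-2.4 and sls-2.8 also lay in promoter windows of protein-coding genes. The sls-2.2 summit lay 172 bp downstream of the 5′ end, past the end of the gene, and in no promoter window. sls-2.1, on chromosome II, had summits with IDR signals of 75.7 (rank 270) and 37.3 (rank 1137), and its strongest summits had 36.3 in replicate 1 (rank 187) and 40.5 in replicate 2 (rank 405). sls-2.4, on chromosome I, had 69.0 (rank 330), with 27.0 in replicate 1 (rank 340) and 54.8 in replicate 2 (rank 206). sls-2.2, on chromosome II, had 43.1 (rank 862), with 18.3 in replicate 1 (rank 736) and 35.7 in replicate 2 (rank 533). These 3 genes share the leader printed in capitals for sls-2.1.

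The other, sls-2.8 on chromosome III, had an IDR signal of 32.9 (rank 1416), with 21.8 in replicate 1 (rank 525) and 19.2 in replicate 2 (rank 1789). Its summit lay 48 bp into the gene in the pooled list, at 166 bp in replicate 1 and 60 bp upstream in replicate 2, so the replicates placed it differently. sls-2.3, which has the shared leader too, had no pooled or replicate 2 summit and a replicate 1 summit of signal 7.21 at rank 4240. Among the remaining SL2 genes with a pooled summit, the highest pooled signal was 20.1, at sls-2.14 (rank 3046). No summit in any of the 4 lists was found at 5 SL2 genes, all on chromosome I or IV: sls-2.6, sls-2.10, sls-2.11, sls-2.12 and sls-2.13.

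The U5 gene F38E11.10, on chromosome IV, had an IDR signal of 41.9 (rank 903), with 14.1 in replicate 1 (rank 1224) and 35.1 in replicate 2 (rank 555). Its sequence is identical in 2 genes. The U6 gene W05B2.8, in an intron of dhc-4, which encodes a dynein heavy chain, had 37.4 (rank 1129), with 6.21 in replicate 1 (rank 5820) and 31.7 in replicate 2 (rank 679). Its sequence is identical in 14 genes, and the replicates ranked it far apart. No word of 32 bases within either gene occurs only once in the genome, while 80.4% and 83.9% of the words of their extended regions do.

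Repeats may limit what could be seen at snRNA genes, which was not tested. The median share of 32-base words found once in the genome was 100% within snoRNA genes and 23.9% within snRNA genes. It was 0% for the extended SL1 genes, which had no summit in any list, 58.3% for extended U2 genes and 89.9% for extended SL2 genes. Within the SL2 genes that had an IDR summit, the share was 39.2% at sls-2.1 and 50.6% at sls-2.2. It was 74.7% at sls-2.4 and 100% at sls-2.8. How the authors treated reads with several matches is not given in the sources used here, so the absence of summits at SL1 and other repeated genes was not tested as a difference in binding. Of the 343 members in which at least 90% of the words of the extended region occur once, 24 had an IDR summit, 22 snoRNA genes and 2 snRNA genes. The share over all genes was not computed under this limit.

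The IDR summits of snoRNA genes lay mostly upstream of the 5′ ends, with 17 of 24 pairs there, against 3 of 7 pairs at snRNA genes, where SL2 genes had 1 of 5. Of the 31 pairs of an IDR summit and a member, 20 lay upstream of the 5′ end, 8 inside the gene and 3 downstream, with a median position of 25 bp upstream (position −25, order-statistic 95% interval −69 to 1). All 5 pairs at host-intron snoRNA genes were upstream, those of C51F7.3 and F55A11.10 in exons of the host, against 8 upstream and 5 inside at free-standing ones. The median position was −28.5 bp for the strongest 1910 peaks of replicate 2 alone and 15 bp for those of replicate 1 alone, so its sign rests on the replicate. Over all summits of the relaxed lists, 46.1% of the pooled, 43.7% of the replicate 1 and 49.2% of the replicate 2 pairs were upstream, with median positions of 10, 26 and 1 bp downstream of the 5′ end. For snoRNA genes alone, the upstream shares in these lists were 48.7%, 46.5% and 53.7%, with median positions of 0.5, 16 and −19 bp. In the pooled list, host-intron snoRNA genes had 13 summits in the 100 bp upstream of the 5′ end (9.15 per 100 genes), and their bins from 1000 to 100 bp upstream held 4.23 to 9.15 per 100 genes, so the bin next to the gene did not stand above all others. Free-standing genes had 26 there (21.0 per 100 genes), and their bins farther upstream held 2.42 to 10.5. The snRNA genes had 17 (13.2 per 100 genes), with 0.775 to 5.43 farther upstream and 11.6 in the bin from 100 to 200 bp downstream of the 5′ end.

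**Figure D4:**
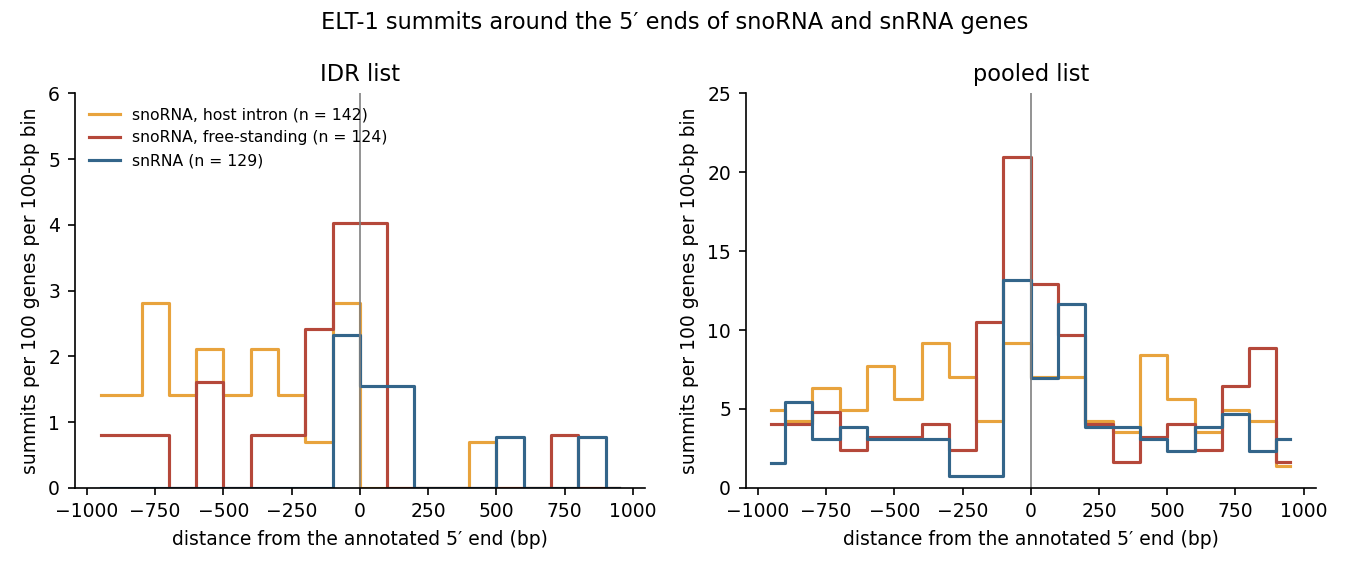
Summits per 100 genes in bins of 100 bp around the annotated 5′ end, for the IDR list (left) and the pooled list (right), with negative distances upstream; lines are host-intron snoRNA, free-standing snoRNA and snRNA genes. In the pooled list the bin just upstream reaches 9.15 for host-intron snoRNA genes, 21.0 for free-standing snoRNA genes and 13.2 for snRNA genes.

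GATA sites were less frequent at the members' summits than at other summits. Within 50 bp of the summit, 3 of 30 IDR summits in extended members had a site (10%, interval 2.11 to 26.5), against 749 of 1852 other nuclear IDR summits (40.4%, interval 38.2 to 42.7). The 3 were at W06H8.17, F32E10.10 and C08D8.3, whose sequences are printed above. The form AGATAA was present at 1 member summit (3.33%) and 23.6% of the others, AGATAG at none and 9.99%, TGATAA at 1 (3.33%) and 9.29%, and TGATAG at 3 (10%) and 3.83%. TGATAG was thus the only form whose share was not lower at the member summits. The 4 letters GATA alone were found at 10 of 30 (33.3%), against 63.6% of the others.

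The same order held in the relaxed lists, where 14.3% of 203 pooled member summits had a GATA site, against 22.4% of the others. The shares were 15.8% and 22.2% in replicate 1, and 13.8% and 22.1% in replicate 2. For windows of the same length, a GATA site was present in 16.6% of those centred on the 5′ ends of all 475 members, 22.6% of those at protein-coding 5′ ends and 19.8% of tiles over the nuclear genome. Base composition differed too: the median GC content of the windows was 51% at member IDR summits and 42.6% at the others, and its part in the difference was not tested. A match of letters is a description and does not show a bound site, and a window without a match says nothing about the factor.

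**Figure D5:**
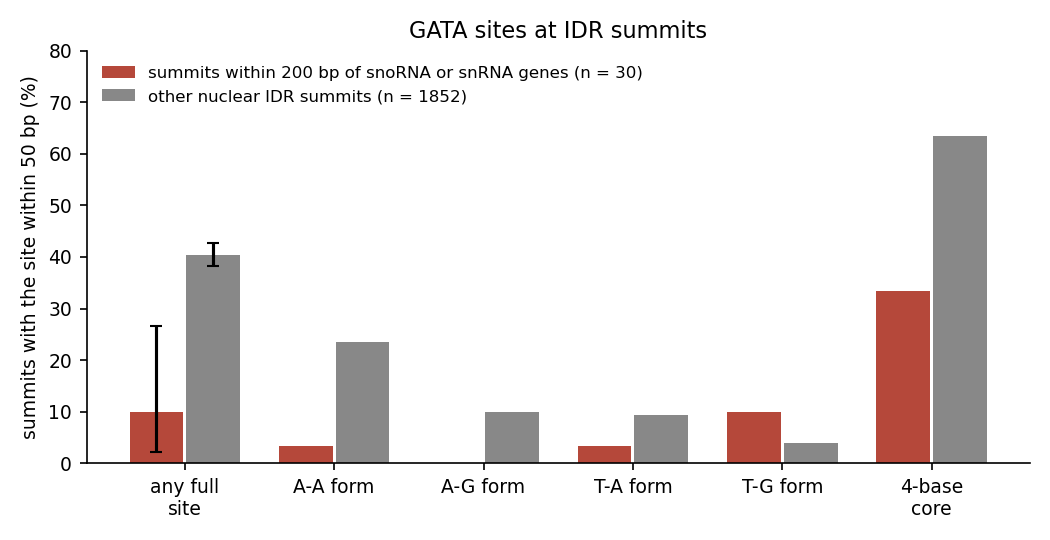
Percent of IDR summits with a GATA site within 50 bp, for summits in extended snoRNA or snRNA genes (left bar of each pair, n = 30) and other nuclear IDR summits (right bar, n = 1852); the first pair is any full site with exact 95% intervals, the next 4 are its forms, named by the base before and the base after GATA, and the last is GATA alone. Any full site was at 10% and 40.4%.

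A word of 8 letters, CGGAACCC, was the most frequent one in the 100 bp upstream of snRNA genes, and was found from these sequences without the peak lists. In other animals, snRNA genes carry a proximal sequence element upstream of the start, bound by the SNAPc complex; whether this word belongs to it was not tested. It is shown in capitals in the promoter of the U6 gene W05B2.8, 250 bases before to 50 after the 5′ end, on the gene's strand in ce11.
W05B2.8, chrIII:10989429-10989728, plus strand: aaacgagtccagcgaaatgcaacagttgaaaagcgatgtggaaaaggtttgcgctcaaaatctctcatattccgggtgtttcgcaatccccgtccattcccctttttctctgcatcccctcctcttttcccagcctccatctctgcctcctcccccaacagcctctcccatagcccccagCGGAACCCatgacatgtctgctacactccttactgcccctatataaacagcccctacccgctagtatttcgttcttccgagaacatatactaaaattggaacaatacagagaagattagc
Searched on both strands, the word was present upstream of 31 of 129 snRNA genes (24.0%), 4 of 142 host-intron snoRNA genes (2.82%) and 12 of 124 free-standing snoRNA genes (9.68%), against 10 of 19973 protein-coding genes (0.0501%). In promoters of 300 bases, cut like the one printed, it was in 11.2% of the members and 0.265% of protein-coding genes. In snRNA genes it always lay on the gene's own strand, 56 to 74 bp upstream with a median of 61. It was found at 7 of 12 U1, 6 of 11 U5, 5 of 10 SmY, 5 of 18 SL2 and 5 of 22 U6 genes, and at no U2 or SL1 gene.

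Both this word and an IDR summit were found at 6 members: Y74C9A.6, Y53F4B.47, F25H2.15, F59C6.15, W05B2.8 and sls-2.8. The first 4 are free-standing snoRNA genes. IDR summits were present at 6 of 51 members with the word (11.8%, interval 4.44 to 23.9) and at 24 of 424 without it (5.66%, interval 3.66 to 8.31). Among free-standing snoRNA genes, the counts were 4 of 12 (33.3%, interval 9.92 to 65.1) and 9 of 112 (8.04%, interval 3.74 to 14.7). Both pairs of intervals overlap. The other classes had similar shares or few genes: with and without the word, IDR summits were at 1 of 5 (20%) and 3 of 13 (23.1%) SL2 genes, at 1 of 12 (8.33%) and 4 of 50 (8%) free-standing snRNA genes, and at 0 of 4 and 5 of 138 (3.62%) host-intron snoRNA genes. The word lay within 50 bp of 4 of the 30 IDR summits in extended members (13.3%), against 3 of the 1852 other IDR summits (0.162%) and 0.143% of tiles of the nuclear genome. The word was picked from sequences beside snRNA members, and member summits lie within 200 bp of members by definition. A higher share than elsewhere was thus built in, and a link to ELT-1 binding was not tested. The longer 300-base promoters of members held the word in 11.2%.

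Many of the member summits also had another annotated gene close by, so a summit cannot be given to the member alone. Of the 30 IDR summits, 16 (53.3%, interval 34.3 to 71.7) were in a protein-coding promoter window, against 43.7% of the other nuclear IDR summits. Without those 16, 15 members kept an IDR summit, 13 snoRNA and 2 snRNA genes, and the matching count over all genes was not computed. Protein-coding genes with the nearest start included sdha-1, a subunit of succinate dehydrogenase, at D2021.6, and klc-1, a kinesin light chain, at M7.15. An ncRNA gene lay within 200 bp of 11 of the 30 summits (36.7%), against 14.7% of the others, and a tRNA gene within 200 bp of none, against 1.03%.

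The proteins that make or carry these RNAs were read by their promoter windows, from 7 lists of 49 genes. Of the 48 genes that matched the annotation, 5 (10.4%) had one of the IDR summits there, against 4.99% of all protein-coding genes. Among box C/D core proteins, fib-1, the methyltransferase fibrillarin, had a signal of 32.5 and nol-58 had 27.7, making 2 of 4. Among box H/ACA core proteins, nola-3 had 32.4, making 1 of 4. Among 15 Sm and Sm-like proteins, which bind snRNAs as rings, lsm-7 had 39.4. Among 10 subunits of Integrator, a complex that cuts the 3′ ends of snRNAs, ints-4 had 43.8 and was the only one of the 5 with a GATA site within 50 bp. None of the 7 SNAPc, 6 snRNP and assembly or 2 cap-binding genes had one. Counts of this size, 5 of 48, rest on few genes.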

How the data were processed

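ELT-1 ChIP-seq peak lists of 1 group with 2 biological replicates were used, on ce11. The authors called a relaxed list for each replicate and for the pooled replicates against a control and took the IDR list from these, per their library file lists. The deposited signal is each peak's own value, the deposited −log10 q values tie at a highest value and were used only to describe the lists, and the summit is a deposited offset from the peak start. Not given in the sources used here are the aligner, the IDR cutoff and the peak caller. Per the labels, fragments of 150 to 350 bp were selected. Read depth is unknown. The control was not analysed here.

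Summits were placed in Ensembl release 115 genes, with names from RefSeq by WormBase identifier (475 of 475 matched), using Python 3.11.15, pandas 2.3.3, NumPy 2.4.6, SciPy 1.17.1 and Biopython 1.88. Placement was tested on simulated summits. No significance test was run, since the set of members and the lists were chosen with earlier results of these data known and there is no contrast. Intervals are exact 95% intervals that cover counting error only and treat genes as independent, which neighbours and identical copies are not. The genes named are members at the 12 strongest IDR summits, snRNA genes with an IDR summit, members among the strongest 1910 peaks of both replicates, hosts of bound intronic snoRNAs and listed protein genes with an IDR promoter summit; others were chosen after their values were seen. Alternatives changed the extension, the peaks, the place classes, the promoter overlap, the GATA definition, the replicate and the repeats.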

Additional observations from a re-analysis of the deposited data

How the results depend on the processing

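The alternatives gave 92 values beside the main ones. Of these, 72 stayed within 1.5 times the main count or inside the main interval and 20 moved, although each interval is wide at these counts. The order of host-intron and free-standing snoRNA genes changed in 0 of the 11 alternatives that gave their difference. Some of the 72 could not move. No snoRNA gene has an identical copy, and no IDR summit in an extended member lay within 200 bp of a tRNA gene. With no extension, 8 members kept an IDR summit, 6 snoRNA and 2 snRNA genes, with shares of 0% for host-intron and 4.03% for free-standing snoRNA genes. With a 500 bp extension the host-intron share was 9.15% and the density ratio to the genome 4.18. With the stronger 955 IDR peaks, 9 members (5 snoRNA genes) were counted, the shares were 0% and 4.03%, the density ratio 3.93 and the median signal 45.9, the last by construction. Outside promoter windows the counts were 15 members, 13 snoRNA and 2 snRNA genes, and the free-standing share 4.84%. For these changes of extension, peaks and promoter overlap, shares over all genes were not computed, so the counts have no such reference. GATA alone was at 33.3% of member summits. Added after seeing the data, members with at least 90% single words gave 2 snRNA genes, and summits over 200 bp from tRNA genes gave the main counts. Beyond these constructions, the cause of each move was not tested. With 1 replicate left out, the count ran from 30 to 35 members, 23 to 29 snoRNA genes and 6 to 7 snRNA genes. The host-intron share ran from 1.41% to 5.63%, the free-standing share from 12.1% to 12.9%, and the difference from −11.5 to −6.46 points. The density ratio ran from 6.45 to 7.51, the GATA share from 6.67% to 8.57%, and the median position from −28.5 to 15 bp. No paired analysis was possible because there is 1 group. Unknown depth and repeated sequence may limit what the lists can show at snRNA genes.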

Other observations

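Of the 475 members, 51 lay within 400 bp of another member, so their extended regions overlap or touch. The first members below the IDR threshold in the pooled list were Y53F4B.48 (signal 27.1, rank 1961), a free-standing snoRNA gene, and Y62F5A.11 (signal 26.5, rank 2040), in an intron of mdt-8, a Mediator subunit. They were followed by ZK484.11 (signal 26.1, rank 2081), a free-standing snoRNA gene, and the U4 gene C52E4.8, with a signal of 25.7 at rank 2138, rank 1627 in replicate 1 and rank 2508 in replicate 2.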
